A study of Mus musculus with 7 samples.

Results

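Fos, Fosb, Fosl1, Fosl2, Jun, Junb, Egr1, Egr2, Atf3 and Ier2, genes of the AP-1 transcription factor and of the immediate early response, were followed through RNA-seq of 7 mouse brain tumours. The 10 genes were taken by name, not by their values, from tables of 37620 mouse gene identifiers, and all 10 were among the 16068 genes with enough reads to be tested. The tumours grew in the brains of nude mice, which lack most T cells, from implanted glioblastoma stem-like cells of subventricular zone origin that had been cultured for 10 to 15 passages. GSC1 cells carried the changes labelled lgT and Ras (4 independent tumours). GSC2 cells carried those labelled shp53, Nf1-/- and CDK4 (3 independent tumours). With 1 line for each set of changes, genotype and line cannot be told apart, and each tumour holds host cells besides the implanted ones. The labels do not say whether tumours of a line came from separate cultures, so p-values measure the spread between these tumours. The comparison asks how GSC1 tumours differ from GSC2 tumours in these genes.

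AP-1 is a dimer of basic leucine zipper proteins, usually a Fos family protein with a Jun family protein, and it binds short palindromic sites in promoters and enhancers. Some of its genes, with Egr1, Egr2 and Ier2, are switched on within minutes by growth factors, depolarisation or stress, without new protein synthesis. This runs through kinases of the MAPK cascade that act on serum response factor, its ternary complex partners and CREB-type factors. Ras, which the labels of GSC1 name, and Nf1, a negative regulator of Ras that GSC2 lacks, both act on that cascade. Neurons also use these genes after firing, and the handling of fresh tissue can induce them.

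Fosl1, Egr1 and Ier2 had no matched promoter window. The search left out the chromosome of Egr1, so that gene could not be matched. The promoters of the other 7 of the 10 genes matched windows from RefSeq on GRCm38.p6, a later build than the mm9 that the submitters' notes name. The 250 bases before the start are shown for 4 of them: Fos, the only one of the 10 with a negative r to each of the others over the 7 tumours, Jun, the one with the highest level per length, and Fosb and Egr2, picked because their windows hold an EGR site and a CArG box. Each is printed along its gene's strand, and capitals mark motif matches on either strand. Fos is at chr12:85473640-85473889 on the plus strand, Jun at chr4:95052223-95052472 on the minus strand, Fosb at chr7:19310046-19310295 on the minus strand, and Egr2 at chr10:67537680-67537929 on the plus strand, the most downstream of its 5 listed starts.
Fos: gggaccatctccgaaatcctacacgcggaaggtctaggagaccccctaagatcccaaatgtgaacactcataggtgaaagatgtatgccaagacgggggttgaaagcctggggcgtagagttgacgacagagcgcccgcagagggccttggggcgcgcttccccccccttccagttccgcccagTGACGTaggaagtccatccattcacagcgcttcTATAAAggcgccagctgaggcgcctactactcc
Jun: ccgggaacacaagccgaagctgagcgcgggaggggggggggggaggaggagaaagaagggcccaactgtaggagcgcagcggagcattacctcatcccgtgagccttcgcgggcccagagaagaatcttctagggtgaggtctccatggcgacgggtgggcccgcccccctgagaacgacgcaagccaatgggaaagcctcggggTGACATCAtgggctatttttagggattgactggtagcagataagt
Fosb: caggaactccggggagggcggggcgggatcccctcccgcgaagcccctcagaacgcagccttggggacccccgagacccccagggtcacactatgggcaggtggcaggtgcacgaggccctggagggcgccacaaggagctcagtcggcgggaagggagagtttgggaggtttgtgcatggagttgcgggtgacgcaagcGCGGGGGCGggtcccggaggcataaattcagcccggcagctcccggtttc
Egr2: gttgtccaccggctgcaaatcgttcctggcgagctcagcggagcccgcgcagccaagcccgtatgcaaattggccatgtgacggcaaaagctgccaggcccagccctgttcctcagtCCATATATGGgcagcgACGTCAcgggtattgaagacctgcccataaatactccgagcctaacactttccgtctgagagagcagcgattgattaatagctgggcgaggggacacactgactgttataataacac
The motifs searched were the CArG box, which serum response factor binds, TGACGTCA (the CREB and ATF site) and its core TGACGT, which lies inside it, TGACTCA (the AP-1 site), TGACATCA (an AP-1-like site), TATAAA (the TATA box) and GCGNGGGCG (the EGR site). Fos holds TGACGT at 66 to 61 bases and TATAAA at 33 to 28 bases before the start. Jun holds TGACATCA at 45 to 38 bases, Fosb the EGR site at 50 to 42 bases, and Egr2 a CArG box at 133 to 124 bases and TGACGT on the opposite strand at 117 to 112 bases before the start. Of 32851 windows of this length 1.47% hold a CArG box, 6.47% TGACGT, 1.55% TGACGTCA, 4.46% TGACTCA, 2.93% TGACATCA, 12.4% TATAAA and 4.7% the EGR site. Of the windows not shown, that of Fosl2 holds the EGR site, that of Atf3 holds TGACGT on the opposite strand, and that of Junb holds none of the motifs. Of the other Egr2 windows 1 holds none and 3 hold a CArG box. In all but 1 of these 3 the CArG box is the same site as in the window shown, since the windows overlap. These matches are letters in a window and no measure of binding.

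The libraries held 21635117 to 32643408 reads on genes in GSC1 tumours and 18643155 to 27020814 in GSC2 tumours, and the 10 genes had between 71 and 8760 reads in a library. Levels are CPM, read counts scaled to a common library size by TMM, so they compare a gene between tumours but not genes with each other. Neural stem and progenitor markers, which the labelled cell type should express, were present in all libraries, with summed levels of 590 to 1173 CPM over 7 genes in GSC1 and 821 to 923 CPM in GSC2. Normal brain transcripts varied widely. A brain score was formed by averaging log2 CPM of 10 neuron and 9 mature oligodendrocyte markers. It was 6.37, 5.05, 8.60 and 8.04 in GSC1 replicates 1 to 4, against 6.50, 7.91 and 7.79 in GSC2 replicates 1 to 3. Long transcripts were underrepresented in GSC1 replicates 3 and 4 and GSC2 replicate 3, where genes with transcripts of 8000 bases or more had a median log2 deviation that differed by -0.40, -0.36 and -0.70 from that of genes with 2000 bases or fewer. The difference was 0.02 to 0.64 in the other tumours.

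None of the 10 genes passed the test between GSC1 and GSC2 tumours. By edgeR's quasi-likelihood test 0 of the 10 had an adjusted p below the threshold of 0.05, as did 0% of the 16068 genes, and the adjusted p was 0.9999 for all 10. Unadjusted p-values under 0.05 were found for 0 of the 10, against 4.21% of the genes tested (1.9% higher and 2.32% lower in GSC1), and the values of the lines overlapped for all 10. Limma-voom, DESeq2 and edgeR without a filter on low counts also called 0 of the 10, where they called 0.00622%, 1.19% and 0.00437% of the genes tested. The median log2 fold change, GSC1 minus GSC2, was 0.37 over the 10 genes and 0.03 over all genes tested, with 6 positive and 4 negative. The intervals of all but Fos include a log2 fold change of 1 or -1, so the data do not bound these differences below that size.

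**Figure D1:**
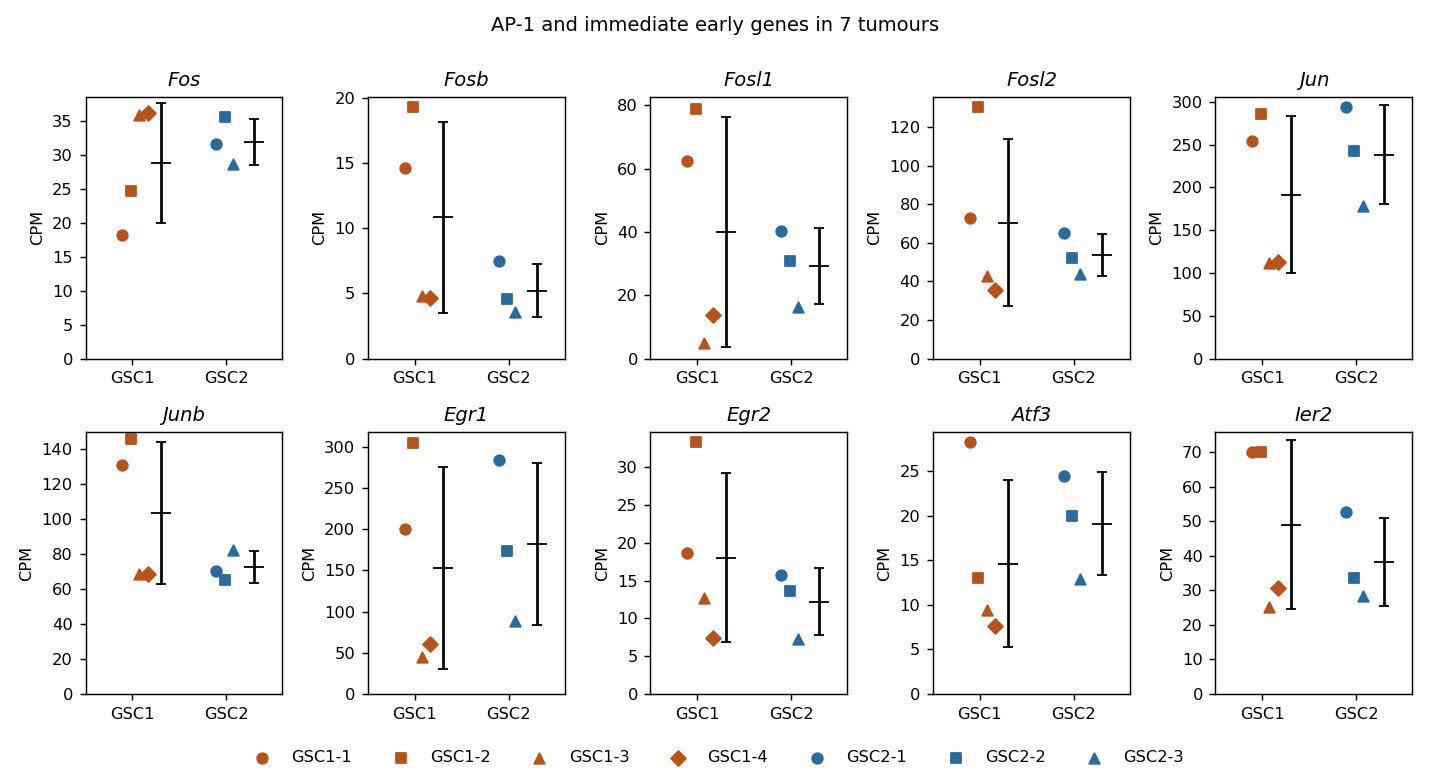
CPM (vertical axis, linear from 0) of each of the 10 genes in every tumour, GSC1 left and GSC2 right, with symbols for replicates and the mean ± SD in black beside the points. GSC1 replicates 1 and 2 are above GSC1 replicates 3 and 4 for 9 genes, and Fos is the other way round, at 18.2 and 24.6 CPM against 35.9 and 36.2 CPM.

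Among the Fos family, Fos itself, the founding partner of Jun, measured 18.2, 24.6, 35.9 and 36.2 CPM in GSC1 replicates 1 to 4, against 31.5, 35.5 and 28.6 CPM in GSC2 replicates 1 to 3. It had the narrowest range of the 10 genes, 1.99-fold between its highest and lowest tumour, and the GSC2 values lie inside the GSC1 range. The means were 28.7 ± 8.84 CPM over GSC1 tumours and 31.9 ± 3.43 CPM over GSC2 tumours (SD, n = 4 and 3), a log2 fold change of -0.15 (SE 0.29, 95% interval -0.84 to 0.53).

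Fosl1, which encodes Fra-1, a Fos protein without the C-terminal activation domain that follows sustained ERK signals, had the widest range of the 10 genes. It measured 62.5, 79.0, 4.85 and 13.9 CPM in GSC1 replicates 1 to 4, against 40.1, 31.0 and 16.3 CPM in GSC2 replicates 1 to 3. All GSC2 tumours fell between the high and the low GSC1 tumours, and the highest and lowest tumour, GSC1 replicates 2 and 3, were 16.3-fold apart. The means were 40.1 ± 36.3 CPM over GSC1 tumours and 29.1 ± 12.03 CPM over GSC2 tumours (SD), with a log2 fold change of 0.46 (SE 0.88, 95% interval -1.60 to 2.52).

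Fosl2, which encodes the related Fra-2, measured 72.8, 131, 42.7 and 35.6 CPM in GSC1 replicates 1 to 4, against 65.4, 52.2 and 43.8 CPM in GSC2 replicates 1 to 3. GSC1 replicate 2 stands above all others. Fosb, whose product resembles Fos and is known for its stable short form in neurons, measured 14.6, 19.3, 4.77 and 4.67 CPM in GSC1 replicates 1 to 4, against 7.48, 4.56 and 3.56 CPM in GSC2 replicates 1 to 3. It had the largest fold of the 10 genes, a log2 fold change of 1.06 (SE 0.62, 95% interval -0.38 to 2.51), and the difference lies in GSC1 replicates 1 and 2, since replicates 3 and 4 were within the GSC2 range.

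Of the Jun family, Jun, the main partner of the Fos proteins, measured 254, 286, 112 and 113 CPM in GSC1 replicates 1 to 4, against 294, 242 and 178 CPM in GSC2 replicates 1 to 3. Its highest tumour was GSC2 replicate 1 and its lowest GSC1 replicate 3, and the log2 fold change was -0.32 (SE 0.41, 95% interval -1.28 to 0.65). Junb, a Jun protein that is a weaker activator on its own, measured 131, 146, 68.4 and 68.7 CPM in GSC1 replicates 1 to 4, against 70.2, 65.1 and 82.6 CPM in GSC2 replicates 1 to 3. All GSC2 tumours were below GSC1 replicates 1 and 2, and the log2 fold change was 0.51 (SE 0.34, 95% interval -0.28 to 1.30). Junb was the only one of the 10 genes whose highest GSC2 tumour was replicate 3.

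Egr1, a zinc finger activator that ERK signals induce through serum response factor, measured 200.0, 304, 45.2 and 61.0 CPM in GSC1 replicates 1 to 4, against 284, 174 and 88.0 CPM in GSC2 replicates 1 to 3. All 3 GSC2 tumours lie between the highest and lowest GSC1 tumour, and the range was 6.73-fold (log2 fold change -0.25, SE 0.72, 95% interval -1.93 to 1.43). Egr2, the paralogue known for myelination by Schwann cells and for hindbrain patterning, measured 18.7, 33.3, 12.7 and 7.38 CPM in GSC1 replicates 1 to 4, against 15.7, 13.7 and 7.22 CPM in GSC2 replicates 1 to 3. It was highest in GSC1 replicate 2, and its lowest values in the lines, 7.38 and 7.22 CPM, were alike (log2 fold change 0.56, SE 0.54, 95% interval -0.70 to 1.83).

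Atf3, a stress-induced basic leucine zipper repressor that also pairs with Jun proteins, measured 28.2, 13.0, 9.46 and 7.67 CPM in GSC1 replicates 1 to 4, against 24.4, 19.9 and 12.9 CPM in GSC2 replicates 1 to 3. Only GSC1 replicate 1 was above all GSC2 tumours, and GSC1 replicate 2, the highest tumour for 6 of the genes, was near the lowest GSC2 tumour. Its log2 fold change was -0.39 (SE 0.49, 95% interval -1.54 to 0.77). Without GSC1 replicate 1 it was -0.93 (SE 0.37), not called by edgeR's quasi-likelihood test (adjusted p = 0.99999). With any other single tumour left out it lay between -0.60 and -0.15. Ier2, an immediate early gene of a nuclear protein, measured 70.0, 70.0, 25.2 and 30.7 CPM in GSC1 replicates 1 to 4, against 52.7, 33.7 and 28.2 CPM in GSC2 replicates 1 to 3. The GSC2 tumours lie inside the GSC1 range (log2 fold change 0.36, SE 0.45, 95% interval -0.69 to 1.41). A later annotation places a gene on the opposite strand over part of Jun (Junos), Junb (Prdx2), Fosl1 (Ccdc85b) and Atf3 (Gm24748). No strand setting is stated for the counting, so reads in these overlaps may have gone to either gene or been left out as ambiguous.

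**Figure D2:**
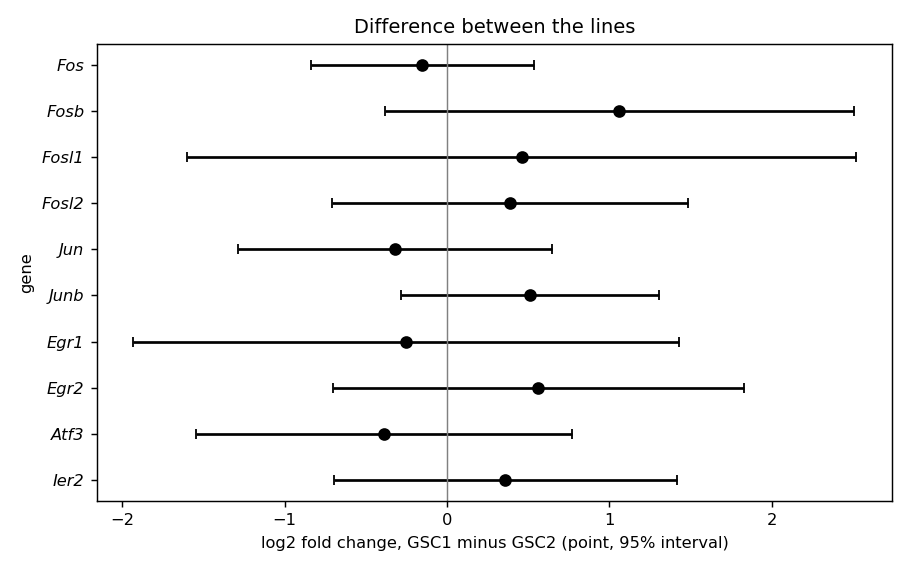
Log2 fold change, GSC1 minus GSC2, of each gene (point) with its 95% interval (bar) from edgeR's quasi-likelihood fit, 4 GSC1 and 3 GSC2 tumours. Every interval crosses 0, and the widest is that of Fosl1, from -1.60 to 2.52.

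Scaled by transcript length, Jun was the most abundant of the 10 genes, with a mean over the tumours of 66.2 CPM per kb of transcript, followed by Junb at 49.9, Egr1 at 36.8, Ier2 at 29.1, Fosl1 at 19.0, Fos at 14.3, Fosl2 at 9.69, Atf3 at 8.32, Egr2 at 5.24 and Fosb at 2.23 CPM per kb. The ranges of each pair of neighbours in this order overlap over the tumours. Jund, the third Jun family gene, which is expressed without a stimulus in many cells and was not among the 10, was higher than all of them at 133 CPM per kb. These levels rest on the longest annotated transcript of each gene.

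The makeup of the Fos family transcripts differed from tumour to tumour. Of the summed CPM per kb of Fos, Fosb, Fosl1 and Fosl2, Fosl1 made up 58.7, 53.5, 9.49 and 23.8% in GSC1 replicates 1 to 4, against 44.4, 39.0 and 29.2% in GSC2 replicates 1 to 3. Fos made up 15.1, 14.8, 62.1 and 54.9% in the GSC1 tumours, against 30.8, 39.5 and 45.3% in the GSC2 tumours. Fosl1 was the leading Fos family transcript in GSC1 replicates 1 and 2 and GSC2 replicate 1, Fos in GSC1 replicates 3 and 4 and GSC2 replicate 3, and Fosl1 and Fos were nearly equal in GSC2 replicate 2. The shares of Fosl2, 17.4 to 25.3% in GSC1 and 18.7 to 22.4% in GSC2, and of Fosb, 3.95 to 6.77% in GSC1 and 2.83 to 4.08% in GSC2, spanned fewer percentage points. The mean share of Fosl1 was 36.4 ± 23.6% in GSC1 and 37.5 ± 7.74% in GSC2 (SD, n = 4 and 3).

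In the Jun family, Jund made up 44.2, 38.1, 75.0 and 70.0% of the summed CPM per kb in GSC1 replicates 1 to 4, against 38.1, 49.1 and 55.7% in GSC2 replicates 1 to 3. Jun made up 29.2, 32.6, 12.03 and 14.5% in GSC1, against 43.6, 34.5 and 24.4% in GSC2. The sum over the 3 Jun genes was 272, 275, 291 and 245 CPM per kb in GSC1 replicates 1 to 4, against 212, 220.1 and 229 CPM per kb in GSC2 replicates 1 to 3, so the lines did not overlap. This sum was formed after the values had been seen and was not tested. Its lines did not overlap under RLE scaling or with library sizes alone either, and 2.53% of single genes lay wholly higher in GSC1. The Fos family sum, formed alongside it, was 57.2, 79.2, 27.4 and 31.3 CPM per kb in GSC1 replicates 1 to 4. In GSC2 replicates 1 to 3 it was 48.5, 42.6 and 30.0 CPM per kb, so the lines overlapped, as they did under the other scalings.

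**Figure D3:**
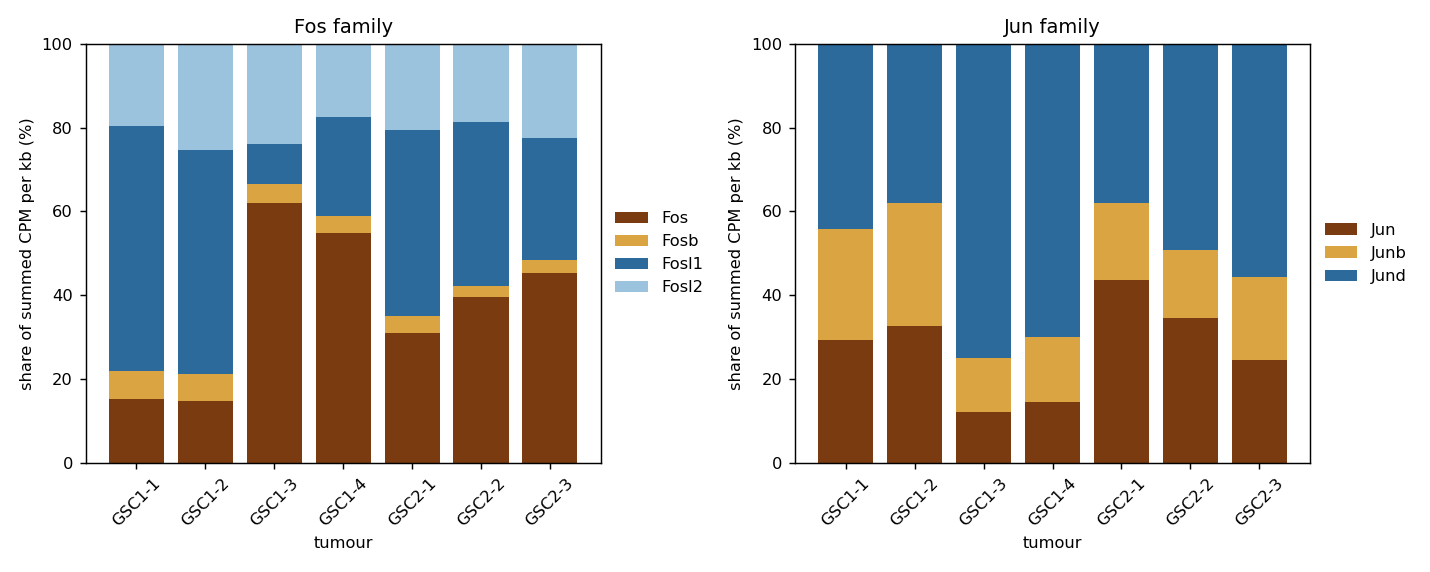
Share (%) of each gene in the summed CPM per kb of the Fos family (left) and the Jun family (right) in each tumour, GSC1 before GSC2. Fos fills 62.1% of the Fos family bar in GSC1 replicate 3 and 14.8% in GSC1 replicate 2, and Jund 75.0% and 38.1% of the Jun family bar in the same tumours.

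Of the 10 genes 9 ran lower where normal brain transcripts were higher, and 4 of them passed the test. Each gene was related to the brain score over the 7 tumours, with exact permutation p-values over all pairings, two-sided, adjusted over all 16068 genes. Of the 10 genes, 4 fell with the score, against 10.1% of the genes tested, and 0 rose, against 13.3%. Fosl2 had a Pearson r of -0.95 (exact permutation p = 0.00317, adjusted p = 0.0287, Spearman's rho = -0.93, exact p = 0.00675, adjusted p = 0.0373), and -0.79 when the 2 tumours with scores farthest from the median were left out. For Ier2 r was -0.94 (exact permutation p = 0.00159, adjusted p = 0.0215, Spearman's rho = -0.86, exact p = 0.0238, adjusted p = 0.0738), and -0.95 without those tumours. Fosb had an r of -0.91 (exact permutation p = 0.00635, adjusted p = 0.0385, Spearman's rho = -0.64, exact p = 0.139, adjusted p = 0.231), and -0.71 without them. Fosl1 had the steepest slope, -0.995 log2 CPM per unit of score, with an r of -0.89 (exact permutation p = 0.00913, adjusted p = 0.0449, Spearman's rho = -0.96, exact p = 0.00278, adjusted p = 0.0283), and -0.82 without them. By rank 3 of the 10 fell, against 8.15% of the genes tested, and 0 rose, against 9.95%. Egr1 passed by rank only, with a rho of -0.93 (exact permutation p = 0.00675, adjusted p = 0.0373) beside a Pearson r of -0.86 (exact permutation p = 0.0153, adjusted p = 0.0562).

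Jun, Junb, Egr2 and Atf3 had negative r values of -0.79, -0.83, -0.82 and -0.45 that did not pass, and leaving out the same 2 tumours gave -0.13 for Junb and -0.37 for Egr2. Fos alone had a positive r, 0.69 (exact permutation p = 0.0802, adjusted p = 0.150). After centring in each line, with permutations kept inside lines (144 arrangements), r was -0.96 for Fosb, -0.92 for Fosl1, -0.95 for Fosl2, -0.95 for Egr1 and -0.94 for Ier2, but 0 of the 10 genes and 0 of the 16068 passed. The smallest p that these arrangements can give is 0.00694. At an unadjusted exact p under 0.05 there were 6 of the 10 within lines, all falling, against 19.1% of the genes tested.

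Markers and library properties also differed between the tumours. The summed level of the 10 neuron markers was 518 to 3518 CPM in GSC1 and 828 to 2106 CPM in GSC2, that of the 9 mature oligodendrocyte markers 611 to 16943 CPM and 2519 to 8815 CPM, and that of the 7 astrocyte markers 1887 to 11858 CPM and 2538 to 6534 CPM, with no marker at 0 in any tumour. Myeloid markers, 9 genes, spanned only 573 to 963 CPM in GSC1 and 788 to 1046 CPM in GSC2. In bulk tumours fewer cells of a type and less RNA per cell cannot be told apart. The libraries poor in long transcripts were GSC1 replicates 3 and 4 and GSC2 replicate 3. GSC1 replicates 3 and 4 also had the highest brain scores, 8.60 and 8.04. The transcripts of the 10 genes are 1522 to 6537 bases long. The part of transcript length and of brain tissue in the levels of the 10 genes was not tested.

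**Figure D4:**
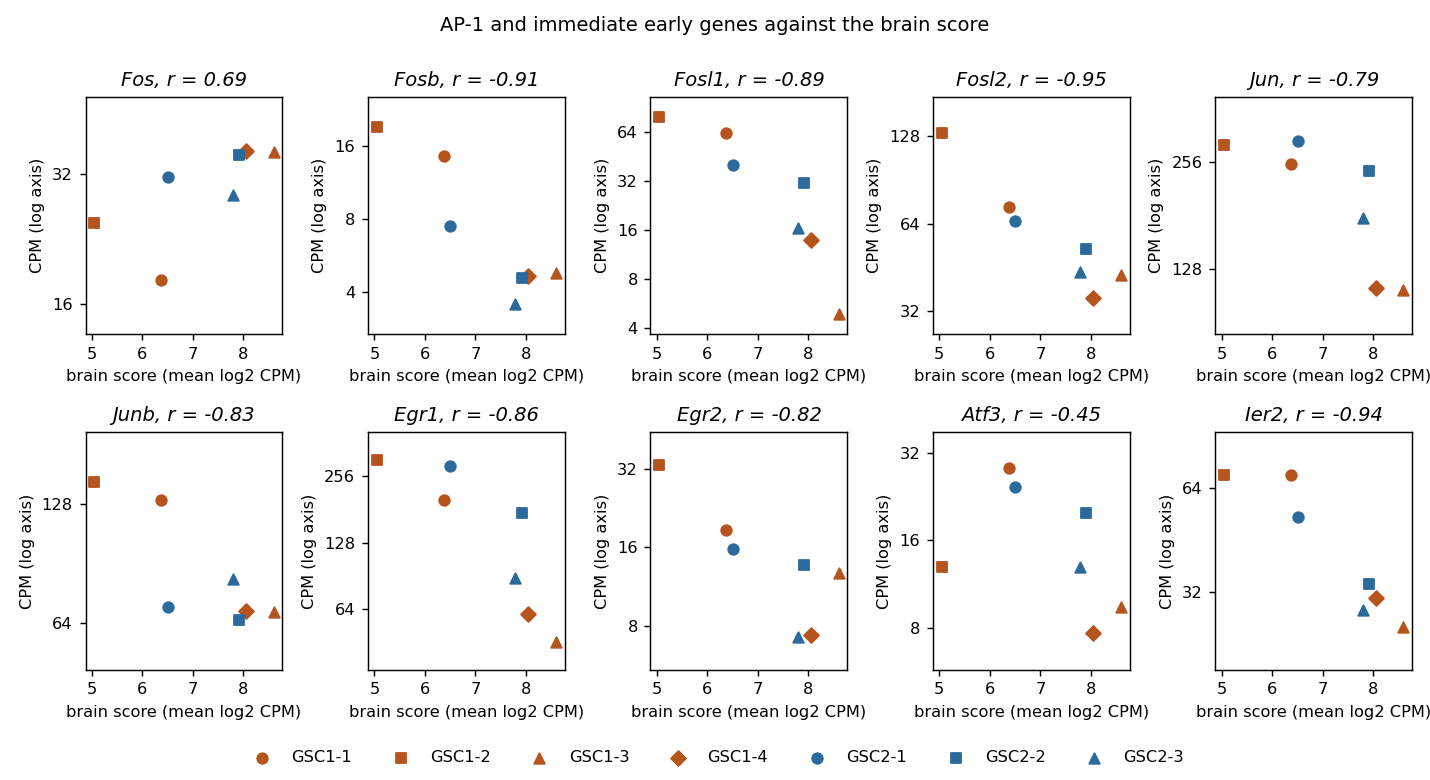
CPM of each gene (vertical, log axis) against the brain score of the tumour (horizontal, mean log2 CPM of neuron and mature oligodendrocyte markers), GSC1 and GSC2 tumours in separate colours, with Pearson r over 7 tumours. Points run downward for 9 genes, with r from -0.45 to -0.95, and upward for Fos, with r = 0.69.

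Of the 45 pairs among the 10 genes, all 36 without Fos had a positive r over the 7 tumours, and all 9 with Fos a negative one. After adjustment over the 45 pairs 10 passed by Pearson, 9 positive and 1 negative, and 3 by Spearman. The largest exact permutation p among the 10 was 0.0101, and of the 160580 pairs of one of these genes with a gene outside the 10, 6.92% reached that p with a positive r and 6.58% with a negative one. At the largest Spearman p that passed the share of such pairs was 5.23%. These shares were added after seeing the data. The closest pair was Jun and Egr1 with r = 0.98 (exact permutation p = 0.000397, adjusted p = 0.0179, Spearman's rho = 0.96, exact p = 0.00278, adjusted p = 0.0417), and 0.99 when the 2 tumours farthest from the median of Jun were left out. Fosl1 and Egr1 passed by both measures as well, with r = 0.94 (exact permutation p = 0.00179, adjusted p = 0.0238, Spearman's rho = 0.96, exact p = 0.00278, adjusted p = 0.0417), and 0.89 without the 2 tumours farthest from the median of Fosl1. Fosl1 and Fosl2 passed by rank alone, with a rho of 0.96 (exact permutation p = 0.00278, adjusted p = 0.0417) beside a Pearson r of 0.82 (exact permutation p = 0.0228, adjusted p = 0.0728). The negative pair was Fos and Junb, with r = -0.89 (exact permutation p = 0.0101, adjusted p = 0.0455, Spearman's rho = -0.82, exact p = 0.0341, adjusted p = 0.0853).

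Atf3 had r from 0.28 (to Junb) to 0.83 (to Jun) with the 8 genes other than Fos, and none of its pairs passed. Within lines 0 of the 45 pairs passed, with 18 at an unadjusted exact p under 0.05, all positive, where 14.4% of the pairs with genes outside the 10 were. The count of 10 was 0 without GSC1 replicate 2, GSC2 replicate 1 or GSC2 replicate 2, and 6 without GSC1 replicate 3. With a tumour left out there are fewer pairings and the smallest possible p is larger. A lower count there does not show that the pairs rest on that tumour. All pairs share the 7 libraries, their depth and their brain content.

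**Figure D5:**
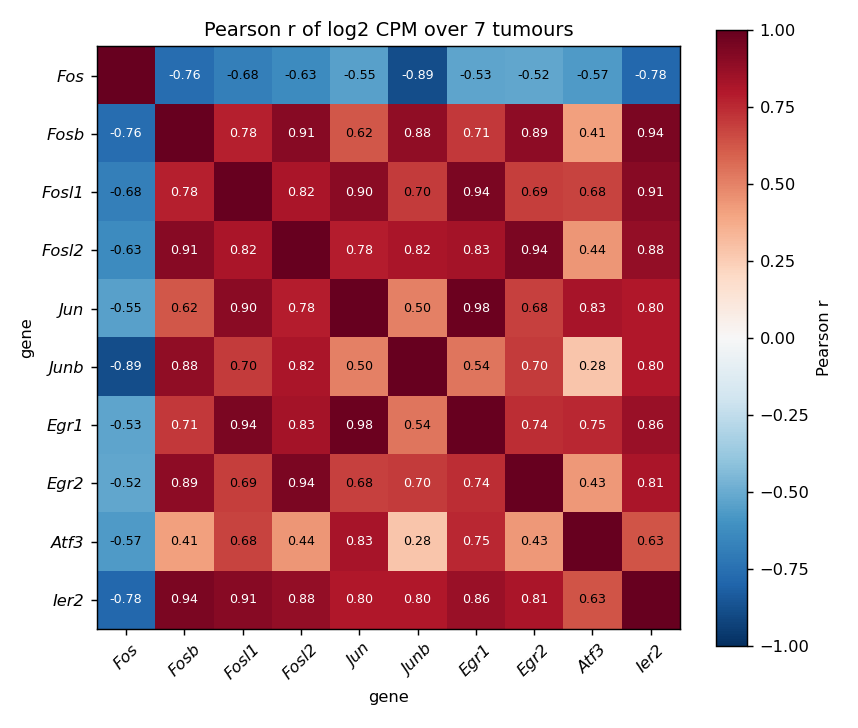
Pearson r of log2 CPM over 7 tumours for each pair of the 10 genes (colour scale from -1 to 1, value printed in each cell). The row and column of Fos hold negative values, -0.52 to -0.89, and all other cells are positive, 0.28 to 0.98.

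The genes most like Fosl1 and Fos in pattern were named from 11970 genes with a symbol and a mean of at least 5 CPM. Symbols that start with Gm or end in Rik were left out. Picked as the highest r of 11970 over 7 tumours, the genes named were bound to have high values and were not tested. For Fosl1 they were Plcg2, Ttc7, Hmga2, Mcu and Mapkap1, with r over 7 tumours of 0.998, 0.996, 0.994, 0.993 and 0.993. Hmga2, which encodes a chromatin protein of fetal and tumour cells, measured 538, 722, 22.6 and 85.9 CPM in GSC1 replicates 1 to 4, against 435, 258 and 92.6 CPM in GSC2 replicates 1 to 3. For Fos they were Heph, Arhgap5, Elovl6, Sec22c and Antxr1, with r of 0.97, 0.96, 0.96, 0.96 and 0.95. Heph, the ferroxidase gene hephaestin, measured 0.840, 2.39, 21.6 and 13.1 CPM in GSC1 replicates 1 to 4, against 6.67, 9.92 and 6.37 CPM in GSC2 replicates 1 to 3.

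Among other AP-1 genes 0 of 14 tested passed in either direction in edgeR's quasi-likelihood test, DESeq2 or limma-voom. The median log2 fold change was 0.23 beside 0.03 over all genes tested. In edgeR 1 gene was below 0.05 unadjusted, against 4.21% of the genes tested. That gene was Batf2, an interferon-induced AP-1 gene of myeloid cells, at 1.02 ± 0.452 CPM over GSC1 tumours and 2.81 ± 1.13 CPM over GSC2 tumours (log2 fold change -1.45, SE 0.58), the only one of the 14 whose lines did not overlap, where 3.05% of all genes lay wholly lower in GSC1. Jund was at 257 ± 86.4 CPM over GSC1 tumours and 176 ± 39.5 CPM over GSC2 tumours (0.54, SE 0.32). Batf3 was at 2.97 ± 1.92 CPM over GSC1 tumours and 1.09 ± 0.673 CPM over GSC2 tumours, and Jdp2, a repressor that binds Jun, at 31.2 ± 14.0 CPM over GSC1 tumours and 20.2 ± 2.99 CPM over GSC2 tumours. Of the abundant genes, the stress factor gene Atf4 was at 225 ± 135 CPM over GSC1 tumours and 168 ± 70.6 CPM over GSC2 tumours, Nfe2l1 at 356 ± 23.8 CPM over GSC1 tumours and 299 ± 55.4 CPM over GSC2 tumours, and Nfe2l2 at 115 ± 70.3 CPM over GSC1 tumours and 135 ± 41.5 CPM over GSC2 tumours (SD, n = 4 and 3 here and below).

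Of 26 other immediate early genes tested, 0 passed in edgeR, DESeq2 or limma-voom, and 12 folds were positive and 14 negative (median log2 fold change -0.01). The 2 at an unadjusted p under 0.05 in edgeR, against 4.21% of the genes tested, went opposite ways. Their lines did not overlap, where 2.53% of the genes tested lay wholly higher and 3.05% wholly lower in GSC1. Nr4a3, an orphan nuclear receptor gene, was at 3.95 ± 1.30 CPM over GSC1 tumours and 9.50 ± 5.35 CPM over GSC2 tumours (log2 fold change -1.27, SE 0.46). Ccn1, which encodes a matrix protein induced by growth factors, was at 88.8 ± 19.8 CPM over GSC1 tumours and 57.6 ± 2.59 CPM over GSC2 tumours (0.63, SE 0.24). Ccn2, its paralogue, was at 58.8 ± 46.7 CPM over GSC1 tumours and 19.6 ± 5.31 CPM over GSC2 tumours, and Dusp5, an ERK phosphatase gene, at 91.3 ± 60.7 CPM over GSC1 tumours and 34.1 ± 5.26 CPM over GSC2 tumours. Genes over 100 CPM included Klf6 at 116 ± 25.0 CPM over GSC1 tumours and 110 ± 8.90 CPM over GSC2 tumours, Klf10 at 102 ± 69.0 CPM over GSC1 tumours and 114 ± 10.6 CPM over GSC2 tumours, Mcl1 at 203 ± 55.6 CPM over GSC1 tumours and 193 ± 18.9 CPM over GSC2 tumours, and Rhob at 333 ± 169 CPM over GSC1 tumours and 318 ± 117 CPM over GSC2 tumours. With the brain score 5 of the 26 fell, against 10.1% of the genes tested, and 1 rose, against 13.3%. Those that fell were Ier5, Klf4, Btg2, Myc and Mcl1, with r from -0.86 to -0.93, and Dusp1, a MAPK phosphatase gene, rose with r = 0.97 (exact permutation p = 0.000595, adjusted p = 0.0178). These 6 were named after their values were seen.

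Of the kinases and factors upstream of these genes, 0 of 21 passed in edgeR, DESeq2 or limma-voom, with 0 below 0.05 unadjusted in edgeR and a median log2 fold change of 0.07. Mapk3, the ERK1 gene, was at 203 ± 23.0 CPM over GSC1 tumours and 155 ± 31.4 CPM over GSC2 tumours (0.39, SE 0.22). The kinase genes Mapk9 (JNK2) and Map2k4 were at 137 ± 67.1 and 99.0 ± 35.5 CPM in GSC1, and at 83.7 ± 21.8 and 76.7 ± 9.41 CPM in GSC2. Rps6ka1, an ERK-activated kinase gene, was at 45.1 ± 10.1 CPM over GSC1 tumours and 54.5 ± 4.06 CPM over GSC2 tumours. With the brain score 5 of the 21 fell, against 10.1% of the genes tested, and 1 rose, against 13.3%. The serum response factor gene Srf fell with r = -0.91 (exact permutation p = 0.00159, adjusted p = 0.0215), as did its partners Elk3, Elk4 and Mrtfa, while its partners Elk1 (r = -0.74, exact permutation p = 0.0458, adjusted p = 0.103) and Mrtfb (r = -0.66, exact permutation p = 0.109, adjusted p = 0.186) did not pass. The fifth gene that fell was the kinase gene Rps6ka3. Mapk10, a JNK gene of neurons, rose with r = 0.97 (exact permutation p = 0.00119, adjusted p = 0.0197). These 8 genes were named after their values were seen.

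Of the 25 known AP-1 target genes tested, 22 had a positive fold, with a median log2 fold change of 0.35 beside 0.03 over all genes, 0 passed edgeR's quasi-likelihood test, and 5 had an unadjusted p under 0.05, all higher in GSC1, where 1.9% of the genes tested did. Timp1, an inhibitor of matrix proteases, measured 265, 257, 165 and 155 CPM in GSC1 replicates 1 to 4, against 97.7, 92.4 and 126 CPM in GSC2 replicates 1 to 3, with a fold on the log2 scale of 1.00 (SE 0.28, adjusted p = 0.782). Gja1, the connexin 43 gene, which is also in the astrocyte list, was at 831 ± 152 CPM over GSC1 tumours and 400.3 ± 120.1 CPM over GSC2 tumours (1.05, SE 0.30, adjusted p = 0.782). For both the lines did not overlap, where 2.53% of the genes tested lay wholly higher in GSC1. DESeq2 called both (adjusted p = 0.0496 and 0.0419), where it called 1.19% of the genes tested. Il1rl1, an interleukin receptor gene, was at 0.922 ± 0.0635 CPM over GSC1 tumours and 0.370 ± 0.0325 CPM over GSC2 tumours (1.31, SE 0.47). With the brain score 11 of the 25 fell, against 10.1% of the genes tested, and 0 rose, against 13.3%.

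Without the libraries poor in long transcripts, which leaves 2 tumours a line, 0 of the 10 genes passed edgeR's quasi-likelihood test, where 0.348% of the genes tested did. At an unadjusted p under 0.05 there were 7 of the 10, against 15.6% of the genes tested. Fosb (log2 fold change 1.50, SE 0.38), Fosl1 (1.00, SE 0.25), Fosl2 (0.79, SE 0.31), Junb (1.04, SE 0.21), Egr2 (0.82, SE 0.34) and Ier2 (0.71, SE 0.27) had positive folds there, and Fos a negative one (-0.65, SE 0.26). That fit sets GSC1 tumours at brain scores of 6.37 and 5.05 against GSC2 tumours at 6.50 and 7.91. With the brain score as a covariate of all 7 tumours, 0 of the 10 passed, where 0.859% of the genes tested did. At an unadjusted p under 0.05 there were 3, against 17.9% of the genes tested: Egr1 (-0.89, SE 0.26), Jun (-0.59, SE 0.19) and Fosb (0.61, SE 0.26). The score is measured in the same libraries as the genes.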

How the data were processed

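Total RNA of 7 tumours was made into NEBNext Ultra libraries, per the labels. Each deposited file lists whole-number counts of reads for Ensembl genes, not normalized. The submitters' processing notes name TopHat2 2.0.11, HTSeq and the builds mm9 and dm3, with no role given. The 5 summary lines were left out of library sizes: reads on no gene were 6.19 to 14.2% of all reads listed, reads without a unique position 12.8 to 21.0%. Gene symbols matched 32897 of 37620 identifiers. A transcript length, that of the longest annotated transcript, was found for 97.2% of the genes tested.

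Groups and replicate numbers came from the titles. The test was edgeR's (4.0.16, in R 4.3.3: TMM, filterByExpr, robust quasi-likelihood test, Benjamini-Hochberg adjustment over all genes tested, threshold 0.05). The standard error is the log2 fold change over the square root of F. Log2 CPM for correlations used a prior count of 2. Correlations were tested exactly over all pairings in Python 3.11.15; those with the brain score were adjusted over all genes tested, not over the 10 genes, a choice made after seeing the data. The alternatives were RLE factors, no filter, DESeq2 1.42.0, limma-voom (limma 3.58.1), the replicate number as a block, a brain score covariate, leaving out 3 libraries, and leaving out each tumour. The 10 genes, the related lists and the tests were chosen with earlier results of these data known. From each related list the text names up to 4 genes by smallest p, and in 2 lists those with a mean of at least 100 CPM; others are said to be named after their values were seen. A gene that this rule names is not reported here.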

Additional observations from a re-analysis of the deposited data

How the results depend on the processing

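None of the 10 genes was called in any of the 14 alternatives, in 140 fits of a gene. The direction was kept in 130 of these and turned in 10, none of them called. The fold of Fosl1 turned to -0.13 in limma-voom and -0.56 with the brain score; those of Jun and Egr1 turned to 0.014 and 0.14 without the 3 libraries poor in long transcripts. With single tumours left out, folds ranged from -0.26 to 0.015 for Fos (positive without GSC1 replicate 1), -0.10 to 0.86 for Fosl1 and -0.095 to 0.64 for Fosl2 (both negative without GSC1 replicate 2), and -0.83 to 0.23 for Egr1 (0.084 and 0.042 without GSC1 replicates 3 and 4, 0.23 without GSC2 replicate 1). Among all genes tested edgeR called 0, as it did with RLE factors and with each tumour left out (0 to 0). Without a filter 1 gene was called, in limma-voom 1, in DESeq2 192, with the brain score 138, and without the 3 libraries 55. Of the related genes DESeq2 called 4 (Timp1, Gja1, Hspa1a and Hsp90aa1), where it called 1.19% of the genes tested. The main fit tested 14 other AP-1, 26 other immediate early, 21 upstream, 25 AP-1 target and 14 heat shock genes. The fit without the 3 libraries, which leaves 2 tumours a line, called 1 (Plaur), where it called 0.348% of the genes tested. The 10 pairs that varied together were 9 with RLE factors, 0 within lines, and 0 to 8 with a tumour left out. Leaving out a tumour raises the smallest possible p, so a lower count there does not show that the pairs rest on that tumour. The 4 genes that fell with the brain score were 4 with RLE factors and 0 within lines, where 0 of the 16068 genes passed. The 144 arrangements within lines give no p below 0.00694, so that count of 0 does not show that the relation is absent. The cause of the relation was not tested. With the replicate number as a block 0 genes were called. The numbers pair no tumours in the labels, and deviations of same-numbered tumours correlated at 0.58, -0.31 and 0.41. GSC1 replicate 2 correlated best with GSC2 replicate 1, and GSC1 replicate 4 has no partner.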

Other observations

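Heat shock genes, which tissue handling and protein stress induce, were also among the related lists and are described here. Of 14 tested 0 passed edgeR's quasi-likelihood test, 2 had an unadjusted p under 0.05 (against 4.21% of the genes tested), and 11 had a positive fold (median log2 fold change 0.25, beside 0.03 over all genes tested). Hsp90aa1, the inducible HSP90 gene, was at 1102 ± 66.0 CPM over GSC1 tumours and 783 ± 81.1 CPM over GSC2 tumours (0.49, SE 0.21, SD over 4 and 3 tumours), and Hspa1a, an inducible HSP70 gene, at 6.01 ± 0.604 CPM over GSC1 tumours and 3.23 ± 0.531 CPM over GSC2 tumours (0.90, SE 0.31). DESeq2 called both, with adjusted p-values of 0.0381 and 0.0252, where it called 1.19% of the genes tested. Hspa1b was at 7.25 ± 1.49 CPM over GSC1 tumours and 3.75 ± 1.82 CPM over GSC2 tumours. It is nearly identical to Hspa1a, so the counts of the pair are uncertain. Hspb1, the small heat shock protein gene HSP27, measured 19.7, 8.09, 313 and 119 CPM in GSC1 replicates 1 to 4, against 24.7, 29.0 and 49.3 CPM in GSC2 replicates 1 to 3, and rose with the brain score (r = 0.89, exact permutation p = 0.00595, adjusted p = 0.0374).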
